A study of Caenorhabditis elegans with 3 samples.

Results

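The regions described are the peaks of the transcription factor PQM-1 on the X chromosome of the nematode Caenorhabditis elegans. They were chosen by the signal that the authors' peak caller gave each peak of the list called on the pooled reads: the 2000 peaks of highest signal were taken, and those on X were kept. There were 403 of them, and the remaining 1597 of the 2000 lay on the 5 autosomes. The pooled list held 30000 peaks in all, of which 5367 were on X. The signals of the 403 peaks ran from 24.2 to 129.2. The last members just inside the threshold had ranks 1970, 1985 and 1987 with signals of 24.3, 24.2 and 24.2, and the first X peaks outside it had ranks 2010, 2012 and 2014 with a signal of 24.1 each. The choice by signal is not a finding, and the values that follow from the pooled list are a description without a test.

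The assay was ChIP-seq (immunoprecipitation of chromatin, followed by sequencing), which recovers the DNA that a protein holds in fixed chromatin. The samples were whole larvae of the L1, or first, stage. The strain was OP201, genotype unc-119(tm4063) III with the transgene wgIs201, a stable insertion that makes PQM-1 fused at its C terminus to GFP-FLAG, so that the tagged protein and not the native one was measured. There was 1 group of 3 biological replicates, all of that strain and stage, with the sexes pooled and the age given as unknown. The proportion of males, which carry a single X, is not given, and no sex or tissue can be told apart in whole larvae. Each replicate had its own list of 30000 peaks.

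PQM-1 is a zinc-finger transcription factor, best known for acting in the intestine downstream of insulin signalling, where its activity opposes that of the FOXO factor DAF-16. Its binding sites are known for the GATA-like word TGATAAG, also called the DAF-16-associated element. The X chromosome of this worm is present as a pair in hermaphrodites and singly in males, is poor in genes of the germline, and is the target of the dosage compensation complex, which lowers its transcription in hermaphrodites. That complex is recruited at sites that hold the MEX motif (motif enriched on X), of which GCGCAGGG is the core.

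The summit sequences of 6 X peaks show the 2 words that the results turn on. Each is the summit base with 50 bases to each side, on the plus strand of WBcel235 (the assembly also called ce11), with capitals marking TGATAA (and the G that makes it the longer word where one follows), GCGCAGGG, or the reverse complement of either. The lbp-3, elt-3 and elt-2 windows are shown for the GATA-like word, and the other 3 for GCGCAGGG. They were picked to show a word and do not stand for all leading X peaks. Of the 20 X peaks among the 100 highest, 5 held TGATAAG and 4 held GCGCAGGG. The sem-5 promoter peak (rank 36), for one, held none of these words.
lbp-3 promoter (rank 7, chrX:3256916-3257016): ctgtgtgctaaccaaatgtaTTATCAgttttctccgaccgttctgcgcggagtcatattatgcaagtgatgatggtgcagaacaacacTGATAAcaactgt
elt-3 intron (rank 17, chrX:13937562-13937662): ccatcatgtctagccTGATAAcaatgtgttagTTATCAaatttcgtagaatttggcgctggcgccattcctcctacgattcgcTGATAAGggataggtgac
elt-2 promoter (rank 365, chrX:10480838-10480938): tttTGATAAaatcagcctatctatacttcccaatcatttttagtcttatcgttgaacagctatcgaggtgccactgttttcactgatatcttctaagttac
nspc-17 promoter (rank 14, chrX:14525886-14525986): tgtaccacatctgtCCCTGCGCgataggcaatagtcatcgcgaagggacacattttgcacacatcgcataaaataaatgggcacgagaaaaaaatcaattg
mom-1 intron (rank 15, chrX:6296534-6296634): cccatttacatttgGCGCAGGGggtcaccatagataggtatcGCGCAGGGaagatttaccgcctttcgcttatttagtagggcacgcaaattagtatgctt
F20B6.9 intergenic (rank 65, chrX:4209251-4209351): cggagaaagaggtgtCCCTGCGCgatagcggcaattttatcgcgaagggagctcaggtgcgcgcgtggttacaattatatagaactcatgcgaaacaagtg
The first 3 windows hold TGATAA at 2, 3 and 1 places, and only the elt-3 window among the 6 holds the longer TGATAAG. The last 3 hold GCGCAGGG on one strand or the other, at 2 places in mom-1, and hold neither form of the GATA-like word.

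The libraries were not alike. Replicate 3 stood apart: in its own top 2000 list, 35.1% of X peaks and 35.1% of autosomal peaks had their summit in a coding exon, against 5.41% to 7.38% in replicates 1 and 2. Most of its peaks were 240 bp wide, against 330 and 310 bp in replicates 1 and 2. Read counts are not in the files used here, so the depth of each library is unknown and its part in these differences was not tested. Below, each mean over the replicates of an X to autosome comparison is therefore given with and without replicate 3.

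On X, the top peaks were packed more densely than on the autosomes in the pooled list. The pooled list held 22.7 top peaks per Mb on X and 19.3 per Mb on the autosomes, a ratio of 1.18. X is 17.7 Mb long, or 17.7% of the nuclear genome, but holds 2731 of 19973 protein-coding genes, or 13.7%. Per 1000 protein-coding genes there were 148 peaks on X and 92.6 on the autosomes, a ratio of 1.59. Of the 6 chromosomes, X was the densest by both measures in the pooled list.

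The replicates' own lists put 391, 393 and 345 of their top 2000 peaks on X. The ratio of X to autosomes per Mb was 1.13 in replicate 1, 1.14 in replicate 2 and 0.971 in replicate 3, so replicate 3 lay on the other side of 1. The mean was 1.08 ± 0.0951 (SD, n = 3; exact two-sided sign-flip permutation test, p = 0.5, above 1 in 2 of 3 replicates), and 1.14 without replicate 3. With 3 replicates this test cannot give a p below 0.25, and the smallest adjusted p over the 12 tests made in this way was 0.429. Per protein-coding gene the ratios were 1.53, 1.54 and 1.32, with a mean of 1.46 ± 0.129 (SD, n = 3; exact sign-flip permutation test, p = 0.25, the smallest possible, above 1 in 3 of 3 replicates) and 1.54 without replicate 3. X came first of the 6 chromosomes per gene in each of the 3 replicate lists. Thus the excess per gene was present in each library, whereas the excess per Mb was present in replicates 1 and 2 alone. X holds 154 protein-coding genes per Mb and the autosomes 209, so peaks spread evenly per Mb would also give a per-gene ratio above 1. The test of the per-gene ratio against 1 therefore cannot show an excess beyond this difference in gene density. Over all 30000 pooled peaks the ratio was 1.38 per gene and 1.02 per Mb.

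**Figure D1:**
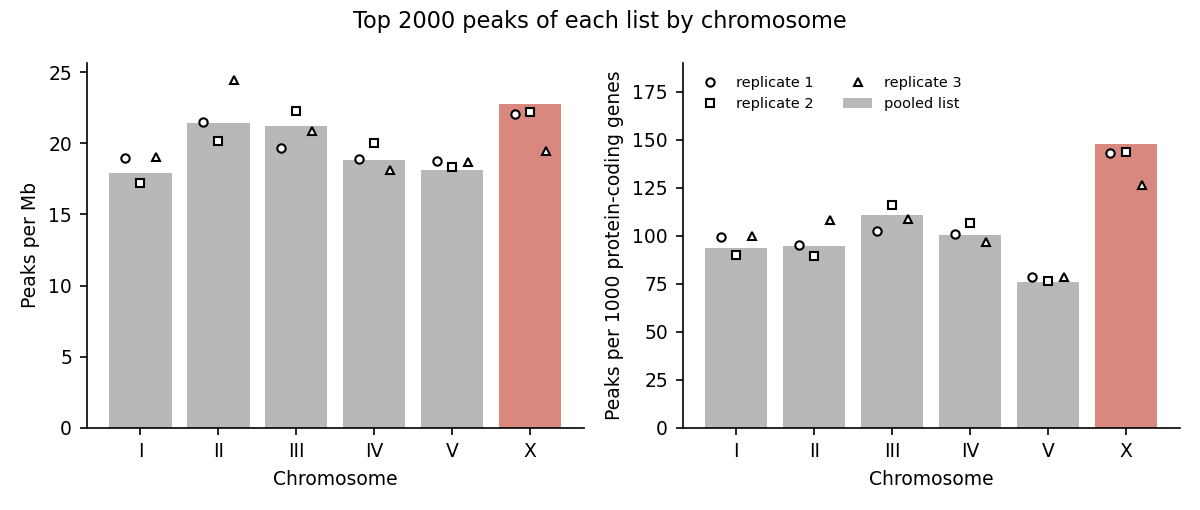
Top 2000 peaks of each list per Mb (left) and per 1000 protein-coding genes (right) on each chromosome. Bars give the pooled list (X in red) and the open symbols the 3 replicates' own lists, with no error bars drawn. X stands above each autosome per gene in every list, at 148 in the pooled list, while per Mb replicate 3 falls among the autosomes.

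The share of X in the pooled list did not climb steadily with signal. X held 20 of the 100 highest-ranked peaks (20%, exact 95% binomial interval 12.7 to 29.2%). It held 25 of the next 150 (16.7%), 44 of the next 250 (17.6%) and 110 of the next 500 (22%), which end at rank 1000. It held 20% of the next 500 and 20.8% of the last 500 above the threshold, and 533 of the next 3000 outside it (17.8%). The intervals of these shares overlap, and like all such intervals here they cover counting of peaks only and treat peaks as independent.

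Along the chromosome, X peaks occurred in all of 10 stretches of equal length. From the left end, these held 33, 44, 46, 60, 32, 27, 44, 44, 31 and 42 of the 403 peaks, and 247, 263, 277, 296, 302, 264, 327, 273, 283 and 199 protein-coding genes. The fourth held the most and the sixth the fewest, a ratio of 2.22, and this ratio ran from 1.91 to 2.86 on the autosomes. In the fourth stretch replicate 1 had 49 peaks, replicate 2 had 51 and replicate 3 had 41. In the sixth, the replicates had 32, 29 and 24. Replicates 1 and 2 had their most peaks in the fourth stretch, and replicate 3 had more in the third (45) and the ninth (43).

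**Figure D2:**
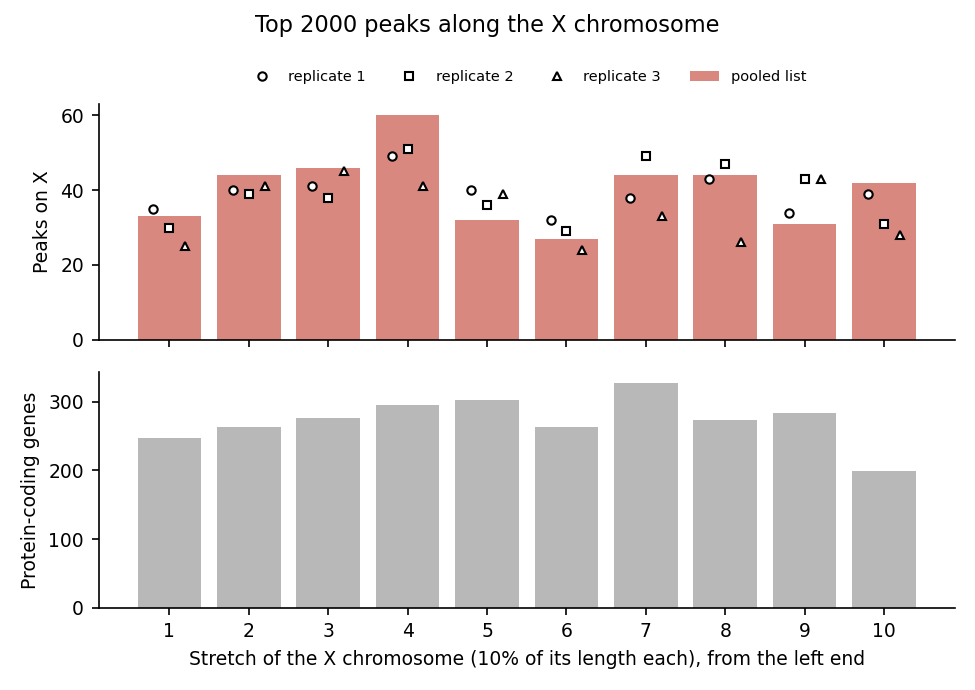
Number of top 2000 peaks (upper panel) and of protein-coding genes (lower panel) in each of 10 equal stretches of the X chromosome from its left end. Bars in the upper panel give the pooled list and the open symbols the 3 replicates' own lists. The fourth stretch holds 60 pooled peaks and the sixth holds 27.

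The outer 20% at each end of X held 37.2% of its peaks together, and the same ends of the autosomes held 33.4% of theirs. In the replicates' own lists the difference, X minus autosomes, was 6.40 percentage points in replicate 1, 1.91 in replicate 2 and -2.65 in replicate 3. The mean of 1.89 ± 4.53 points (SD, n = 3; exact sign-flip permutation test, p = 0.75) was smaller than the spread between replicates, and it was 4.16 without replicate 3.

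In the pooled list, X peaks lay closer to each other than autosomal ones. The distance from a summit to the next top summit had a median of 8065 bp on X and 12862 bp on the autosomes. A neighbour stood within 2000 bp for 22.8% of X peaks and 16.5% of autosomal ones. The higher pooled density on X, at 22.7 against 19.3 peaks per Mb, would also shorten these distances. No spacing is given for the replicates' own lists. The longest stretch of X with no top summit was 387518 bp (chrX:1627146-2014664). The longest chain of summits, each within 10000 bp of the next, held 7 summits over 34340 bp (chrX:11481204-11515544) at lin-14, a heterochronic gene that sets the timing of larval stages, and its neighbours T25C12.3, ccdc-149 and hpo-34. Chains of 5 lay at ddr-1, dpyd-1 and dlg-1 (chrX:5458916-5480075), at got-2.2 and W05H9.4 (chrX:6249473-6255806) and at R03E9.2 and mdl-1 (chrX:6736454-6744726). Among the 8 chains of 4 were those at bcat-1, a branched-chain amino acid transaminase gene, at sams-1, the gene of an S-adenosylmethionine synthetase, and at hsp-3, the gene of an endoplasmic reticulum chaperone. These genes were chosen after their chains were seen.

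Most X peaks lay outside promoters. Of the 403, 176 (43.7%) had their summit in a promoter window, from 1000 bp upstream to 200 bp downstream of a protein-coding 5' end, 110 (27.3%) were intergenic and 64 (15.9%) intronic. The remaining members comprised 26 in coding exons, 18 in non-coding genes, 8 in 3' UTRs and 1 in a 5' UTR. Of the autosomal peaks, 53.9% were in promoter windows, 21.4% intergenic and 15% intronic. Promoter windows cover 21.8% of the sequence of X and 27.1% of that of the autosomes.

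The promoter share was lower on X in each replicate, and the background differs the same way, at 21.8% of X and 27.1% of autosomal sequence. In the pooled list the ratio of X to autosomes was 1.18 for promoter peaks per Mb of promoter window and 1.18 for all peaks per Mb. The differences in promoter share below are therefore not a lower density of peaks in the promoter windows of X. It was 44.2% on X and 51.3% on the autosomes in replicate 1, 44.5% and 52.4% in replicate 2, and 29% and 30.8% in replicate 3. The difference was -5.60 ± 3.28 percentage points (SD, n = 3; exact sign-flip permutation test, p = 0.25, lower in 3 of 3 replicates), and -7.48 without replicate 3. The intergenic share was higher on X by 5.99 points in replicate 1, 3.15 in replicate 2 and 1.35 in replicate 3, a mean of 3.49 ± 2.34 points (SD, n = 3; exact sign-flip permutation test, p = 0.25, 3 of 3 replicates), and 4.57 without replicate 3. The share of all bases that is intergenic is not given here for X or the autosomes, so this difference is not set against its background. The intron shares differed by -0.0180, -0.539 and -0.180 points, a mean of -0.25 ± 0.27 (SD, n = 3; exact sign-flip permutation test, p = 0.25, 3 of 3 lower), a difference smaller than its SD, and -0.28 without replicate 3. In replicate 3 all 3 differences were less than 2 points in size.

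**Figure D3:**
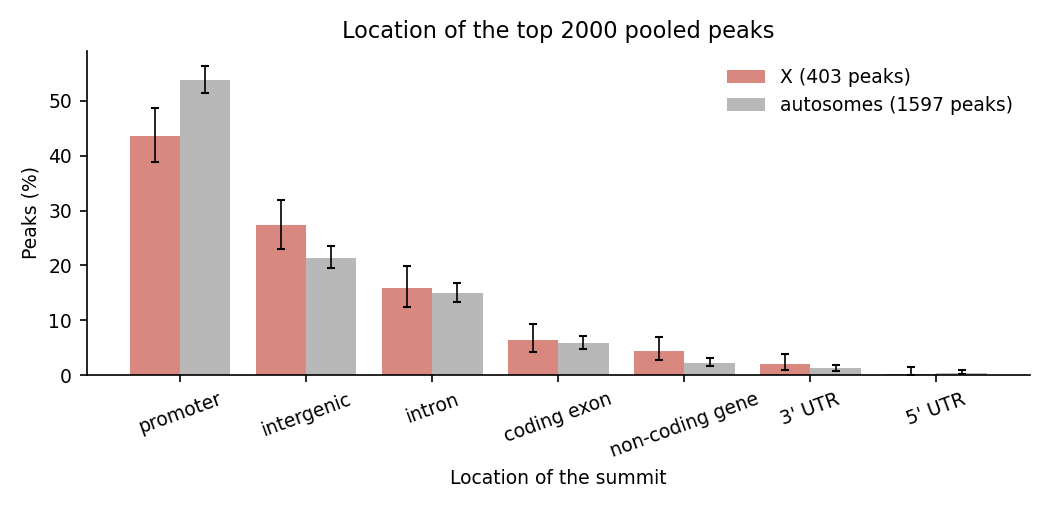
Location of the summits of the top 2000 pooled peaks on X (red) and on the autosomes (grey), in percent of the peaks of each. Error bars are exact 95% binomial intervals, which cover counting of peaks only. X has 43.7% of its peaks in promoter windows against 53.9% on the autosomes, and 27.3% against 21.4% between genes.

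The promoter window reaches 1000 bp upstream and 200 bp downstream, so most of it is upstream by definition. Within promoter windows, most X peaks sat upstream of the gene's start. Of the 176, 161 (91.5%) had their summit upstream of the 5' end, and the autosomal share was 90.8%. The median position of the 176, upstream counted as negative, was -211 bp. Counting all members, the nearest protein-coding 5' end was at a median of 959 bp on X and 611 bp on the autosomes. Protein-coding genes are sparser on X, at 154 per Mb against 209, and these distances were not set against that background. Only 11 X peaks (2.73%) lay in promoter windows of several genes at once, against 179 autosomal peaks (11.2%). In the replicates the difference, X minus autosomes, was -8.20, -9.96 and -2.24 points (mean -6.80 ± 4.05, SD, n = 3; exact sign-flip permutation test, p = 0.25, 3 of 3), and the mean was -9.08 without replicate 3. The background differs the same way: of the bases in promoter windows, 4.50% on X and 11.3% on the autosomes are in the windows of several genes. Of the promoter peaks alone, 6.25% on X and 20.8% on the autosomes were in such bases.

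Counted by gene, 185 of the 2731 protein-coding genes on X (6.77%, exact 95% binomial interval 5.86 to 7.78%) had a top peak in the promoter window, against 5.89% of the 17242 autosomal genes and 6.01% of all genes. The X share exceeded the autosomal one by 0.867 points in replicate 1, 0.718 in replicate 2 and 0.520 in replicate 3. The mean was 0.701 ± 0.174 points (SD, n = 3; exact sign-flip permutation test, p = 0.25, 3 of 3), and 0.792 without replicate 3. Given to the gene with the nearest 5' end alone, the pooled counts were 173 genes on X (6.33%) and 4.85% of autosomal genes. Among the 500 highest-ranked pooled peaks the order turned: 1.46% of X genes and 1.62% of autosomal genes had such a peak.

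The X peak of highest signal (rank 7, chrX:3256821-3257110) lay 406 bp upstream of lbp-3 (WBGene00002255), which encodes a fatty acid-binding protein. Its rank was 8, 7 and 12 in replicates 1, 2 and 3 (9 ± 2.65, SD, n = 3). Here and below, a replicate rank is that of the replicate's own peak covering at least 50% of the pooled one, and a peak is called not found where the replicate's 30000 hold none. The neighbouring genes of the same family, lbp-1 and lbp-2, had no peak above pooled ranks 6478 and 10857 within 1000 bp. The next X peak (rank 14, chrX:14525791-14526080) lay 755 bp upstream of nspc-17 (WBGene00008359), of a nematode-specific peptide family, with ranks of 28, 14 and 14. Both peaks were thus near the head of every list.

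The other 18 genes with the highest-ranked promoter peaks were of varied kinds, and 11 of them had a peak in the top 2000 of all 3 replicates. The peak of sem-5 (rank 36), an SH2 and SH3 adaptor of receptor tyrosine kinase signalling, ranked 24, 177 and 16 in the replicates. The peak of abhd-3.2 (rank 46), of the abhydrolase family, ranked 172, 54 and 60. The peak 217 bp upstream of a 5' end of pcyt-1 (rank 47), whose product makes the CDP-choline used in phosphatidylcholine synthesis, ranked 125, 84 and 58. All 3 were within the 200 highest peaks of each library.

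At C52B11.5 (rank 74) the ranks lay between 80 and 107, at T24C12.3 (rank 86) 145, 1097 and 75, and at fbxb-58 (rank 176), an F-box gene, 206, 56 and 96. The peak 149 bp upstream of ckc-1 (rank 89), the gene of a choline kinase, ranked 75, 460 and 371. The serp-1.1 peak (rank 129) ranked 506, 973 and 94, that of sfxn-1.5, a sideroflexin gene (rank 165), 134, 630 and 240, and that of spc-1, the alpha spectrin gene (rank 186), 399 and 1422 in replicates 1 and 3 and higher in replicate 2. The peak 44 bp upstream of aex-4 (rank 210), a SNARE of the intestine needed for the defecation programme, ranked 207, 656 and 28, and its summit window held TGATAAG. Replicate 2 gave the lowest rank at T24C12.3, ckc-1, serp-1.1, sfxn-1.5 and aex-4.

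Other leading promoters rested on fewer libraries. The clec-265 peak (rank 92), near a C-type lectin gene, ranked 80 and 79 in replicates 1 and 2 and 20436 in replicate 3. The ets-4 peak (rank 144), near an ETS transcription factor gene, ranked 137, 768 and 8842. The cebp-1 peak (rank 148), near a C/EBP bZIP factor gene, ranked 17 in replicate 2 and 4252 in replicate 3 and was not found in replicate 1. The K06G5.1 peak (rank 132) ranked 190, 172 and 10897, and that of F28B4.3 (rank 169) 96, 571 and 3643. At gst-36 (rank 195), a glutathione S-transferase gene that shares its peak with R07B1.5, the ranks were 331, 505 and 3535. In all of these but cebp-1, replicate 3 gave the lowest rank.

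**Figure D4:**
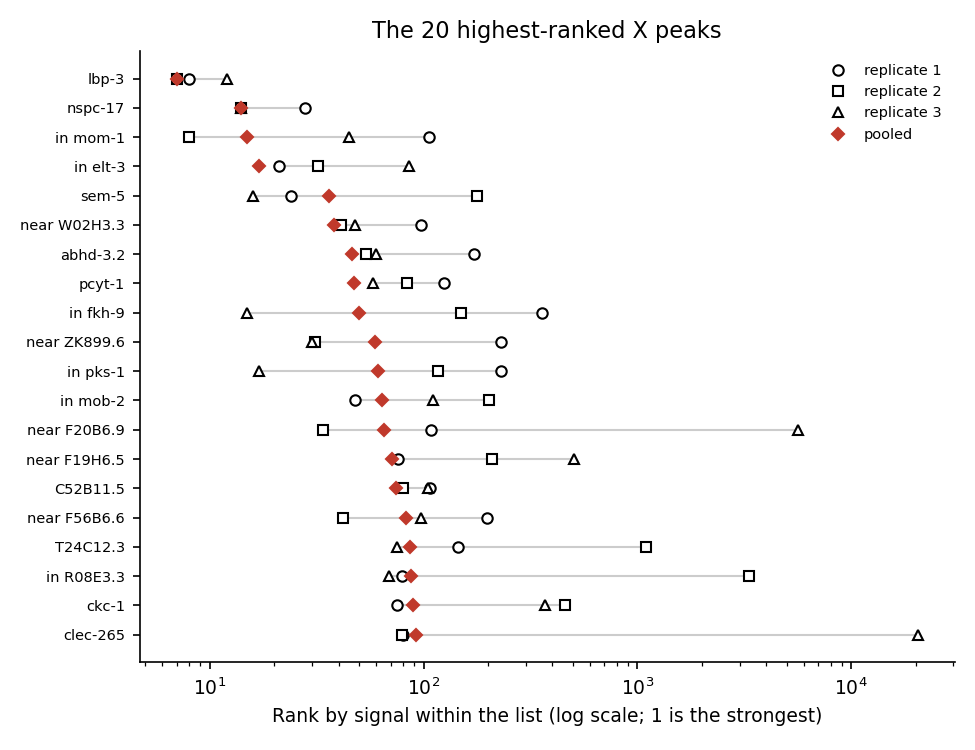
Rank by signal within each list (log axis, 1 is the strongest) of the 20 highest-ranked X peaks, from the top downward by pooled rank. Open symbols give the 3 replicates, red diamonds the pooled list, and grey lines join the lowest and highest replicate rank. The lbp-3 peak lies between 7 and 12 in every list, whereas the clec-265 peak falls to 20436 in replicate 3.

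Many of the leading X peaks lay away from promoters: of the 20 X peaks among the 100 highest, 45% were in a promoter window, against 58.8% of the autosomal ones. Among the 10 of highest rank in no promoter window, the peak in the first place (rank 15) was in an intron of mom-1, which encodes the Porcupine protein of Wnt secretion, and ranked 106, 8 and 45 in the replicates. The second (rank 17) was in an intron of elt-3, a GATA factor of the epidermis, 1131 bp upstream of the nearest 5' end, and ranked 21, 32 and 85. Introns of fkh-9, a forkhead factor gene (rank 50), and mob-2, the gene of a Mob kinase activator (rank 64), held peaks with ranks of 356, 150 and 15 and of 48, 202 and 111. A coding exon of the polyketide synthase gene pks-1 (rank 61) held one with ranks of 231, 117 and 17. The other 5 were intergenic, with W02H3.3, ZK899.6, F20B6.9, F19H6.5 and F56B6.6 as the nearest genes at 1392 to 4000 bp, and 4 of these 5 were in the top 2000 of all 3 replicates. F20B6.9 was the exception, at 5661 in replicate 3.

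Of the intestinal genes on X, 4 of 6 listed had a top peak in the promoter window, and 6 of the 14 autosomal genes on that list did, beside 6.01% of all genes. The bound genes of that list were pept-1, elt-2, ifc-2 and cpr-6. A list of 6 genes is too small to read against the share of all genes. None of the 5 vitellogenin genes on X, described below, had a top promoter peak. The peak 352 bp upstream of elt-2 (rank 365), the GATA factor that drives intestinal genes, ranked 557, 166 and 577. The peak 183 bp upstream of pept-1 (rank 271), the intestinal transporter of small peptides, ranked 50 and 226 and was not found in replicate 3. The ifc-2 peak (rank 712), near the gene of an intestinal intermediate filament, ranked 4746, 896 and 828. The peak 33 bp upstream of cpr-6 (rank 760), a cathepsin B-like protease gene, ranked 701 and 1396 and was not found in replicate 3. It was 1 of 3 top peaks within 1000 bp of cpr-6, of which the best had pooled rank 669. The best replicate 3 rank within 1000 bp of that gene was 932. The elt-2 promoter peak was thus in the top 2000 of all 3 libraries, and the promoter peaks of pept-1, ifc-2 and cpr-6 in that of 2 libraries each.

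For markers of other tissues and for the vitellogenins the counts were likewise too small to read against the 6.77% of all X genes. None of the 5 listed body muscle genes on X and none of the 4 epidermal ones had a top promoter peak, and none of 11 and none of 7 did on the autosomes. Of the 8 neuronal ones, only mec-10 (rank 1144), a channel subunit of touch neurons, did (2 of 14 on the autosomes), and its replicate ranks of 8179, 23565 and 2334 all lay outside the top 2000. None of the 5 vitellogenin genes on X, whose yolk proteins are made by the adult intestine, had one. The best peak within 1000 bp ranked 6143 at vit-1, 29197 at vit-3 and 22093 at vit-5, and vit-2 and vit-4 had none in the pooled list. act-4, an actin gene, had a best pooled rank of 2567 and mec-7, a tubulin gene of touch neurons, 8074. The terminal selector gene unc-3 of motor neurons had a top peak within 1000 bp, at rank 1344, with replicate ranks of 2385, 1610 and 2077.

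Among gene families, the saposin-like genes had the most bound members on X. Of 12 listed lysozyme and saposin-like genes there, 5 had a top promoter peak (6 of 35 on the autosomes): spp-2, spp-6, spp-3, spp-5 and spp-4. All of them lie in one cluster of 4 summits (chrX:7315568-7320514), and spp-2 and spp-6 share a peak, so these are not 5 separate observations. That shared peak (rank 421) ranked 1994, 489 and 497, the spp-3 peak (rank 553) ranked 302, 10309 and 144, and the spp-5 peak (rank 721) ranked 272 and 783 in replicates 1 and 3 and was not found in replicate 2. The spp-4 peak (rank 1291) was outside the top 2000 of each replicate. These genes encode small membrane-acting proteins, several of which are antimicrobial in the intestine.

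The small families gave few counts. Of 3 glutathione S-transferase genes on X, gst-36 and gst-42 were bound (5 of 41 on the autosomes), and of 4 UDP-glucuronosyltransferase genes, ugt-50 and ugt-46 (9 of 63). Of 23 nuclear hormone receptor genes, nhr-255 and nhr-35 were bound (18 of 246), and of 18 ceh homeobox genes, ceh-37 (rank 368; ranks 920, 1757 and 1772), against none of 45 on the autosomes. Single genes were bound among 2 insulin-like peptide genes (ins-39), 16 ABC transporter genes (mrp-5), 18 potassium channel genes (twk-23), 28 chemoreceptor genes (srd-45) and 2 ribosomal protein genes (rpl-11.2). No bound member was counted on X in 4 of the other families: 0 of 33 cuticle collagens, 0 of 32 neuropeptide genes, 0 of 25 acetylcholine receptor and ligand-gated channel genes and 0 of 13 hedgehog-related genes. The same families had few on the autosomes, at 2 of 161, 1 of 70, 0 of 58 and 0 of 71. None of 7 P450 genes and none of 6 bHLH genes of the hlh series on X was bound. The list of the latter does not hold mdl-1, the gene of a Mad-like bHLH factor, which had a peak 66 bp upstream of its 5' end (rank 332; ranks 597, 8477 and 1120) and is named here after its values were seen. Beside the 6.77% of all X genes, most of these family counts are too small to read.

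The genes that count X chromosomes or lower X transcription had no top promoter peak, which in so few genes is near the share over all genes. None of the 6 such genes on X (6.77% of all X genes) and none of the 8 on the autosomes (5.89% of all autosomal genes) had one. The best pooled rank within 1000 bp was 2099 at sex-1, a nuclear receptor gene that acts as an X signal, just outside the threshold, with ranks of 858 in replicate 3 and none in replicates 1 and 2. It was 3012 at sdc-2, the gene that brings the dosage compensation complex to X, with replicate ranks of 5475, 826 and 3512, and 3347 at sdc-1. At xol-1, the switch gene of sex determination, it was 9814. The other X signals, ceh-39 and fox-1, had best ranks of 10173 and 25554, and the GATA genes elt-4 and med-1 had 20168 and none. The microRNA gene let-7, of the larval timing pathway, had 7422, and mir-84 had none. asp-4, an aspartyl protease gene, had a peak of rank 1730 within 1000 bp.

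TGATAAG was found less often at X summits than at autosomal ones. In the pooled list, 82 of 403 X peaks (20.3%, exact 95% binomial interval 16.5 to 24.6%) held it within 50 bp of the summit, on either strand, against 439 of 1597 autosomal peaks (27.5%). The lowest of the 5 autosomes had 23.6% and the highest 31.5%. Of all windows of this length, 1.77% on X and 1.71% on the autosomes hold the word, and the points 500 bp from the X summits held it in 2.23%. X itself had no shortage of the word, with 189.3 copies per Mb against 185.7. Of the 3354 copies on X, 2.83% lay within 50 bp of a top summit, and of the 15332 autosomal ones 3.53% did.

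In the replicates' own lists the word was at 15.1% of X summits and 20.6% of autosomal ones in replicate 1. The shares were 12.7% and 21% in replicate 2, and 8.99% and 10.3% in replicate 3. The difference was -5.05 ± 3.54 percentage points (SD, n = 3; exact sign-flip permutation test, p = 0.25, lower on X in 3 of 3 replicates), and -6.93 without replicate 3. The shorter word TGATAA, which includes TGATAAG, was at 40.9% of X summits and 46.7% of autosomal ones in the pooled list. Its differences in the replicates were -3.13, -7.23 and 0.73 points (mean -3.21 ± 3.98, SD, n = 3; exact sign-flip permutation test, p = 0.5, lower in 2 of 3), and the mean was -5.18 without replicate 3. The longer word was thus lower on X in each library and the shorter one was not. A broader GATA word, WGATAR (W for A or T, R for A or G), was at 54.8% of X summits and 56.7% of autosomal ones in the pooled list. Its X and autosomal shares were 48.8% and 48.5% in replicate 1, 43.5% and 45.7% in replicate 2, and 32.8% and 28.6% in replicate 3.

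The gap lay at the highest ranks. Among the 100 highest pooled peaks, TGATAAG was at 5 of 20 X summits (25%) and at 45% of autosomal ones. In the next 150 peaks the shares were 28% and 42.4%, and in the next 250 they were 18.2% and 39.3%. The gap then narrowed, to 28.2% and 32.6% from there to rank 1000, 18% and 19.3% on to rank 1500, and 12.5% and 16.4% on to rank 2000. Outside the threshold, down to rank 5000, the X share was the higher, at 8.63% against 7.58%. On the autosomes the share fell at each step. On X it showed no steady fall down to rank 1000, lying between 18.2% and 28.2%, and it fell from there. The X shares down to rank 500 rest on few peaks, at 5 of 20, 7 of 25 and 8 of 44.

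Agreement between replicates gave a like picture. Among X peaks in the top 2000 of all 3 replicates, 12 of 45 (26.7%, exact 95% binomial interval 14.6 to 41.9%) held TGATAAG, against 83 of 176 autosomal peaks (47.2%, 39.6 to 54.8%). Among X peaks in the top 2000 of none of the replicates, 15.6% held it, and 14.2% of the autosomal ones did. By location, the X and autosomal shares were 21.6% and 27.6% in promoter windows and 25% and 29.7% in introns. Between genes they were 17.3% (10.7 to 25.7%) and 32.5% (27.5 to 37.7%), the widest gap of the 3 locations. Where the word was present, it stood a median of 22 bp from the summit on X and 20 bp on the autosomes.

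**Figure D5:**
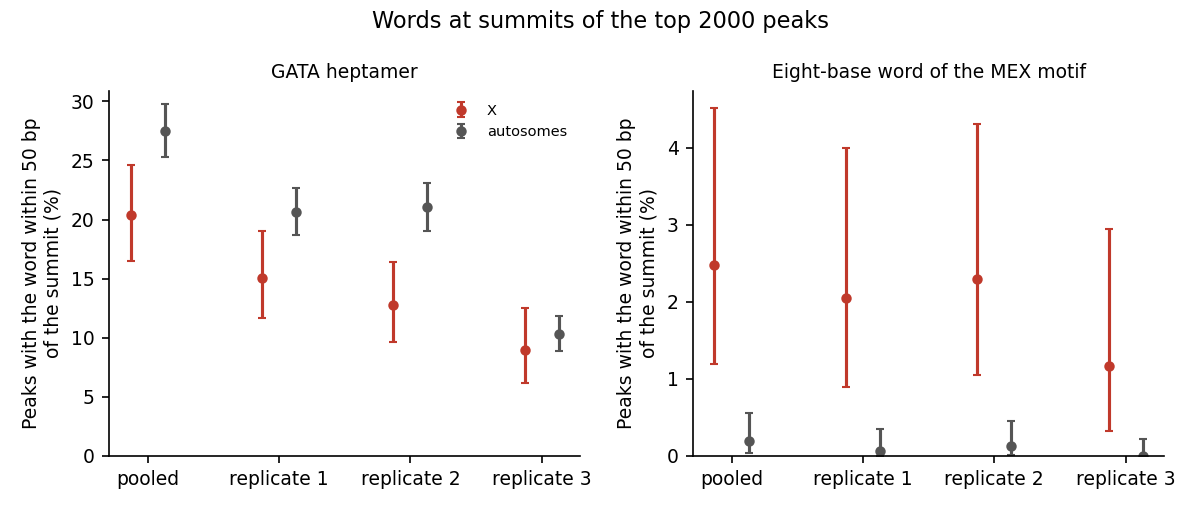
Percent of top 2000 peaks with the 7-letter GATA-like word (left) and with the 8-letter core of the MEX motif (right) within 50 bp of the summit, on X (red) and on the autosomes (grey), in the pooled list and in each replicate's own list. Error bars are exact 95% binomial intervals for counting of peaks. The GATA-like word is at 20.3% of pooled X summits against 27.5% on the autosomes, and the MEX core at 2.48% against 0.188%.

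GCGCAGGG, the core of the MEX motif, was found at the summits of 10 of 403 X peaks (2.48%, exact 95% binomial interval 1.20 to 4.52%) and of 3 of 1597 autosomal peaks (0.188%, 0.0388 to 0.548%). This word was chosen after the leading X sequences had been seen, so its counts are a description and no test is given. The replicates' own lists had 8 of 391 X peaks with the word in replicate 1, 9 of 393 in replicate 2 and 4 of 345 in replicate 3. Their autosomal peaks had it 1, 2 and 0 times, and 0 of 1655 in replicate 3 allows a share of up to 0.181%. The word was thus more frequent at X summits in each of the 3 libraries, by 1.77 ± 0.536 points on average (SD, n = 3) and by 2.07 without replicate 3. The pooled list was made from the reads of these libraries, so they are not independent of the choice of the word. Of all windows of this length, 0.0388% on X and 0.0263% on the autosomes hold it.

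Copies of GCGCAGGG were few, and a larger share of those on X lay near a top summit. X has 81 copies (4.57 per Mb) and the autosomes 233 (2.82 per Mb). Of the X copies, 12 (14.8%, exact 95% binomial interval 7.90 to 24.4%) lay within 50 bp of a top pooled summit, and of the autosomal copies 3 (1.29%, 0.266 to 3.72%) did. The leading X sequences, seen before the word was chosen, hold some of these 12 copies. The contrast therefore follows in part from that choice and is a description only. In the whole lists of 30000 peaks, 18.5% of X copies and 5.58% of autosomal copies lay near a pooled summit. For the replicates' whole lists, the X and autosomal shares were 13.6% and 5.58% in replicate 1, 19.8% and 3.86% in replicate 2, and 19.8% and 4.29% in replicate 3. The flanking points 500 bp from the X summits held the word in 0 of 403 cases, which allows a share of up to 0.744%.

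The 10 X peaks with GCGCAGGG stood high in the list. Their pooled ranks were 14, 15, 38, 65, 116, 209, 251, 374, 739 and 1003, so 4 of the 20 X peaks among the 100 highest held the word, beside 5 with TGATAAG. Because the word was chosen after the leading X sequences had been seen, these high ranks follow in part from that choice and are not a finding. None of the 10 held TGATAAG or TGATAA. By location 6 were intergenic, 2 intronic (mom-1 and Y41G9A.17) and 2 in promoter windows (nspc-17 and ins-39). In 4 of the 10, at nspc-17, mom-1, W02H3.3 and Y41G9A.17, the peak was in the top 2000 of all 3 replicates. The peak near W02H3.3 (rank 38) ranked 97, 41 and 48, and the one in Y41G9A.17 (rank 116) ranked 278, 182 and 164.

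The other 6 differed more between libraries. The peak 4897 bp upstream of xol-1 (rank 209, chrX:8036271-8036560) ranked 340, 28 and 4194. The peak near gtr-1 (rank 251) ranked 293 and 50 and was not found in replicate 3. The peak 607 bp upstream of ins-39 (rank 374), an insulin-like peptide gene, ranked 7638, 29 and 6487. Replicate 2 gave the best rank in each of these 3 and in the peak near T24D8.6 (rank 739), at 510. Near F20B6.9 there were a pair of such peaks, at ranks 65 and 1003, of which the second was outside the top 2000 of every replicate. What the tagged protein or another protein does at these places was not tested.

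X peaks were found again in the replicates about as often as autosomal ones. Of the 403, 238 (59.1%) were in the top 2000 of replicate 1, 204 (50.6%) in that of replicate 2 and 106 (26.3%) in that of replicate 3, and the autosomal shares were 59.6%, 52.3% and 25%. In all 3 top lists there were 45 (11.2%) against 176 autosomal ones (11.0%), and 29.5% of the X peaks were in 2 of them, 43.4% in 1 of them and 15.9% in none. The whole lists of all 3 replicates held 218 X peaks (54.1%), and no X peak was absent from all 3. Of the 403, 129 (32.0%) were in the authors' list of peaks kept by the irreproducible discovery rate, a measure of rank consistency, and 34.6% of autosomal peaks were. The pooled list was made from the same reads as the replicates, so these shares carry no test.

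A few X peaks lay at RNA genes. X holds 276 of the 612 annotated tRNA genes, and 13 of the 403 X peaks (3.23%) had their summit within 250 bp of one, against 16 autosomal peaks (1.00%). Counted by tRNA gene the shares were alike, at 16 of 276 on X (5.80%, exact 95% binomial interval 3.35 to 9.24%) and 20 of 336 on the autosomes (5.95%, 3.67 to 9.04%). Peaks at microRNA genes were at mir-239a and mir-239b (rank 613) and, with 2 peaks of ranks 1505 and 1687, at the mir-54 to mir-56 cluster. These were chosen after their values were seen.

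GC content at the summits was higher on X. The bases within 50 bp of X summits had a mean GC content of 41.7%, and those at autosomal summits 40.0%, with a range of 39.2% to 41.3% over the 5 autosomes. Windows 500 bp away had 35.3% and 35.0%, and the whole X and autosomes 35.2% and 35.5%. These means have no test.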

How the data were processed

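The data were ChIP-seq peak lists of 1 group with 3 biological replicates, numbered as in the labels. Per the deposited README of each sample, peaks were called for every replicate and for the pooled alignments with 1 control file, on the builds ce11 and ce10. The aligner, the peak caller and its thresholds were not given in the sources used here. The deposited signal of each peak is the authors' own value, and since its scale differs between lists it served here to rank peaks of the same list and for nothing else. The control was not analysed here, and depth is unknown.

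Coordinates are 1-based on ce11 (WBcel235). Sequence came from that reference, genes from Ensembl release 115, and let-7 and mir-84 positions from RefSeq of the same assembly. The summit was the point the list gives within the peak. A summit in several classes was given the first that applied of promoter, 5' UTR, coding exon, 3' UTR and intron, then non-coding gene, then intergenic. Words were searched on both strands. The epidermal gene bus-8 was not found under that name in the annotation.

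X and autosomes were compared over the replicates' own top 2000 lists with an exact two-sided sign-flip permutation test, with Benjamini-Hochberg adjustment over 12 tests. Only binomial intervals (Clopper-Pearson, 95%) were used for counts, and the limit set by a count of 0 is 3 counts. The replicates share a strain, and where cultures were not separate the spread may be technical.

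The named genes were the 20 with the highest-ranked promoter peaks on X, the genes of the 10 highest peaks outside promoters, a set named whatever their values, and up to 4 bound members of each of 27 gene lists. The members, words and lists were chosen with earlier results of these data known. The word and overlap functions were tested on simulated data. The tools were SciPy 1.17.1, numpy 2.4.6 and matplotlib 3.10.9 with pandas 2.3.3, under Python 3.11.15.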

Additional observations from a re-analysis of the deposited data

How the results depend on the processing

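There was 1 group, so no samples could be paired between groups, and each X to autosome difference was taken within a replicate. With the 500, 1000 or 5000 highest peaks in place of 2000, the X to autosome ratio per Mb was 1.01 (500) and 1.07 (5000), and per gene 1.37 and 1.45. The TGATAAG difference was -18.9, -11.5 and -1.73 points and the GCGCAGGG difference 8.99, 4.27 and 1.05 points at 500, 1000 and 5000 peaks. The promoter difference was -13.8 points at 500, the intron difference 0.47 at 1000 and 2.89 at 5000, and the difference in the outer 20% at each end 11.9 at 500. The bound-gene difference reversed to -0.159 points at 500 and was 0.352 at 1000 and 0.639 at 5000. It was 1.19 points with windows of 500 bp, 0.659 with 2000 bp and 1.48 with the nearest 5' end alone. The promoter difference was -6.34 points with 500 bp. With words within 25 or 100 bp, the GCGCAGGG difference was 0.682 and 3.47 points; all alternatives for this word were chosen after seeing the data. The difference in peaks found in all 3 top lists was 4.99 points at 500 peaks and reversed to -0.295 with any overlap and to -2.18 with 80% overlap. The cause of these changes was not tested. Leaving out each replicate moved the mean ratio per Mb between 1.05 and 1.14, per gene between 1.43 and 1.54, and the differences between -6.93 and -3.42 (TGATAAG), -7.48 and -4.46 (promoter), -0.36 and -0.10 (intron), 2.25 and 4.57 (intergenic), 0.619 and 0.792 (bound genes) and 1.57 and 2.07 points (GCGCAGGG). The difference in the outer 20% at each end ran from -0.37 (without replicate 1, reversed) to 4.16. Of the alternatives, 47 kept their value within the replicate spread, 23 moved and 4 reversed. Unknown depth limits all counts.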
